A study of Mus musculus with 8 samples.

Results

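Long-chain acyl-CoA synthetases are the enzymes that join long-chain fatty acids to coenzyme A. The mouse genome annotation holds 7 such genes by name, *Acsbg1*, *Acsbg2*, *Acsl1*, *Acsl3*, *Acsl4*, *Acsl5* and *Acsl6*, and all 7 were found among the 54532 Ensembl gene identifiers of the count files. *Acsbg1* was chosen because its counts rose strongly with transforming growth factor β1 (TGF-β1) in these same cultures, and its values are therefore given as a description without a test. The other 6 genes entered by family membership. Primary pericyte cultures from brains of WT mice were compared, 4 that received vehicle (cultures 1 to 4) and 4 that received TGF-β1 at 5 μg/mL (cultures 5 to 8), all harvested at 48 h. TGF-β1 is a secreted cytokine that signals through SMAD transcription factors, and pericytes are the mural cells of capillaries. The cells were expanded over several passages in serum-containing medium with growth factors before treatment, so both groups represent cultured cells and not pericytes in the tissue. The study's methods do not tie the ages of its mice to these cultures. The study's methods describe isolates that each received both treatments, but the labels do not tie cultures to isolates, so no pairing entered the tests.

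A fatty acid that enters a cell must be activated to its acyl-CoA before it can be oxidised, elongated, built into phospholipids and triglycerides or attached to proteins. The synthetases use ATP for this step through an acyl-AMP intermediate, and they differ in tissue, membrane and preferred fatty acid. *Acsl3* and *Acsl4* form one subgroup of the family, *Acsl1*, *Acsl5* and *Acsl6* another, and the bubblegum genes *Acsbg1* and *Acsbg2* a more distant one. In brain, *Acsbg1* is known mainly from astrocytes.

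The relationship between the 7 genes is visible in their coding sequences, and it decides whether sequencing reads could be assigned to the wrong family member. The stretch of 60 coding bases below, taken from GENCODE M21 transcripts, lies over the AMP-binding signature that acyl-CoA synthetases share. It is shown because it is the part of the alignment where the members look most alike, and capitals mark the 26 bases that are identical in all 7 genes.
Acsbg1: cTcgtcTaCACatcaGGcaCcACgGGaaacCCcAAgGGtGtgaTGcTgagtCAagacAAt
Acsbg2: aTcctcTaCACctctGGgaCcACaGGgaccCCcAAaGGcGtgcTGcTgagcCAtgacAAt
Acsl3: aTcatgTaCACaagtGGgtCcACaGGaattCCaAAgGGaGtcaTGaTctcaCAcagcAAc
Acsl4: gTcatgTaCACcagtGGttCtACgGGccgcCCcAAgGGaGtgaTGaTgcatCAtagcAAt
Acsl1: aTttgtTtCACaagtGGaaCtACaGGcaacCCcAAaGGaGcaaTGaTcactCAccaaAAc
Acsl5: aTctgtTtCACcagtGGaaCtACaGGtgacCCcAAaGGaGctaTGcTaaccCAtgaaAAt
Acsl6: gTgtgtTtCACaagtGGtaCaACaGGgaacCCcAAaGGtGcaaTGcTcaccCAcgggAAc

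In the GRCm38 assembly the stretch of *Acsbg1* is on the minus strand in exon 7, at chr9:54622437-54622496. Those of *Acsbg2* (chr17:56856879-56856938, minus strand), *Acsl3* (chr1:78694240-78694299, plus strand) and *Acsl4* (chrX:142343354-142343413, minus strand) are also within exon 7. In *Acsl1* (chr8:46518476-46518995), *Acsl5* (chr19:55281477-55282507) and *Acsl6* (chr11:54329947-54335086), all on the plus strand, it is split over exons 9 and 10, so these coordinates span an intron. Over the whole aligned coding sequence, *Acsbg1* and *Acsbg2* were identical at 57.3% of bases, *Acsl3* and *Acsl4* at 64.7%, and *Acsl1* and *Acsl6* at 65.7%. *Acsl5* was identical to *Acsl1* at 63.6% and to *Acsl6* at 61.0%. *Acsbg1* was identical to the 5 Acsl genes at 37.7% to 40.9% of bases. No stretch of 50 bases in the transcripts of any member occurred in those of another, so reads of that length can be told apart between members.

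The libraries summed to between 45255235 and 47651397 counts, so that 3 counts correspond to 0.0631 to 0.0658 CPM (counts per 1000000 counts of a library, after TMM normalization). Of all genes, 22544 passed the filter on low counts, among them 6 of the 7 synthetases. In edgeR's quasi-likelihood test with Benjamini-Hochberg adjustment over these genes, 9304 (41.3%) had an adjusted p under 0.05, which is called here a change. The share called higher with TGF-β1 was 20.9% and the share called lower 20.3%. The median log2 fold change of all genes tested was -0.01 and the median absolute value 0.18. The labelled cell type was checked by its markers. Of 13 pericyte markers, *Acta2* (731 CPM with vehicle on average), *Pdgfrb* (202 CPM), *Notch3* (88.5 CPM), *Cspg4* (82.9 CPM) and *Anpep* (40.5 CPM) were well measured. *Rgs5* (8.62 CPM) and *Mcam* (5.25 CPM) were lower, and *Atp13a5* (0.723 CPM), *Des* (0.685 CPM) and *Higd1b* (0.278 CPM) were low. *Kcnj8* had at most 2 counts, *Abcc9* at most 9 and *Vtn* at most 6 in any culture. The cultures also held *Col1a1* and *Col1a2*, collagen genes of fibroblasts, at 1588 and 2121 CPM with vehicle, and the summed level of the 6 fibroblast markers was 3717 to 3878 CPM with vehicle and 5327 to 5569 CPM with TGF-β1. Since these are bulk samples, more cells of a type and more RNA per cell cannot be told apart in any value that follows.

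*Acsbg1* was barely expressed with vehicle and well expressed with TGF-β1. *Acsbg1* (ENSMUSG00000032281, chr9:54604877-54661870, minus strand) had 49, 69, 71 and 42 counts in vehicle cultures 1 to 4, or 1.06, 1.51, 1.49 and 0.910 CPM. In TGF-β1 cultures 5 to 8 it had 865, 1034, 887 and 1054 counts, or 18.9, 22.5, 19.4 and 22.4 CPM. The lowest TGF-β1 culture thus lay far above the highest vehicle culture, and the spread within either group was small beside the distance between them. The mean went from 1.25 ± 0.305 CPM to 20.8 ± 1.95 CPM (SD, n = 4 each), a 16.7-fold rise with a log2 fold change of 4.06 (SE 0.10). By that value it ranked 3rd among the 22544 genes tested and 1st among the 16494 genes with a mean of at least 1 CPM, which is what led to its choice.

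**Figure D1:**
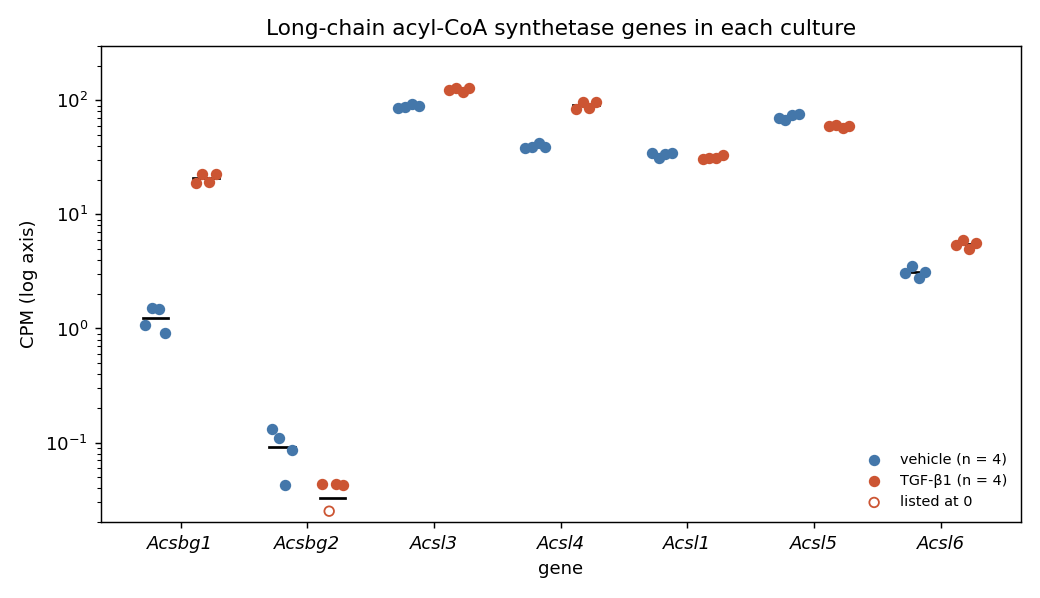
CPM of the 7 genes (log axis) in each vehicle culture (blue) and TGF-β1 culture (orange), with black lines at the group means and an open circle for the culture where *Acsbg2* was listed at 0. *Acsbg1* moves from 0.910 to 1.51 CPM up to 18.9 to 22.5 CPM, while *Acsl1* overlaps between the groups.

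Its closest relative was not induced to a measurable level. *Acsbg2* (ENSMUSG00000024207, chr17:56843103-56874447, minus strand), known from testis, had 6, 5, 2 and 4 counts with vehicle and 2, 0, 2 and 2 with TGF-β1. It did not pass the filter and was not tested, and no fold is given because the counts are at or near the floor of 3. The bubblegum subgroup was thus represented by *Acsbg1* alone at this depth.

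*Acsl3* and *Acsl4*, which form a subgroup of their own, both rose. *Acsl4* (ENSMUSG00000031278, chrX:142317993-142390535, minus strand) prefers arachidonic and other polyunsaturated fatty acids, and the phospholipids made from them are substrates of lipid peroxidation in ferroptosis. Its levels were 38.1, 38.6, 41.9 and 39.2 CPM with vehicle and 83.2, 96.4, 85.2 and 96.2 CPM with TGF-β1. All 4 treated cultures lay above all 4 controls, by a wide margin. The mean rose 2.29-fold, with a log2 fold change of 1.19 (SE 0.05, 95% interval 1.10 to 1.29, edgeR adjusted p = 8.14e-15).

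*Acsl3* (ENSMUSG00000032883, chr1:78657825-78707743, plus strand) encodes an enzyme of the endoplasmic reticulum and of nascent lipid droplets. It was measured at 84.9, 87.4, 92.5 and 89.6 CPM with vehicle and at 123, 128, 118 and 127 CPM with TGF-β1. The groups did not overlap here either, though the change was smaller than that of *Acsl4*, with a log2 fold change of 0.48 (SE 0.03, 95% interval 0.42 to 0.54, edgeR adjusted p = 4.63e-18). The 95% intervals of the pair do not overlap. Of the exon bases of *Acsl3*, 5.60% also belong to *Utp14b* on the same strand, and 3.59% of its 50-base stretches occur in another gene.

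The other 3 Acsl genes, which are closer in sequence to one another than to the rest of the family, did not move together. *Acsl6* (ENSMUSG00000020333, chr11:54303798-54364756, plus strand), a brain enzyme that activates docosahexaenoic acid, was the lowest of them at 3.06, 3.53, 2.78 and 3.14 CPM with vehicle and 5.43, 6.01, 5.00 and 5.60 CPM with TGF-β1. Every treated culture was above every control, and the gene rose 1.76-fold with a log2 fold change of 0.82 (SE 0.11, 95% interval 0.60 to 1.03, edgeR adjusted p = 1.52e-08).

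*Acsl5* (ENSMUSG00000024981, chr19:55251938-55297720, plus strand), best known from intestine and liver and located at mitochondria and the endoplasmic reticulum, moved the other way. Its levels were 70.5, 67.8, 74.8 and 75.4 CPM with vehicle and 59.2, 60.8, 57.4 and 59.1 CPM with TGF-β1. All treated cultures lay below all controls. It was the one family member called lower, with a log2 fold change of -0.29 (SE 0.03, 95% interval -0.35 to -0.22, edgeR adjusted p = 1.32e-09). *Zdhhc6*, on the opposite strand, overlaps 8.31% of its exon bases, and whether counting used strand is not given in the sources used here.

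*Acsl1* (ENSMUSG00000018796, chr8:46471037-46536051, plus strand) is the main long-chain acyl-CoA synthetase of fat, liver and heart. It was measured at 34.2, 31.4, 33.9 and 34.3 CPM with vehicle and at 30.3, 30.9, 31.0 and 33.4 CPM with TGF-β1. The groups overlapped, because TGF-β1 culture 8, the highest of its group, lay above vehicle culture 2, the lowest of its group. The log2 fold change of -0.09 (SE 0.04, 95% interval -0.18 to -0.01) did not pass the threshold (edgeR adjusted p = 0.0824). Without vehicle culture 2 it was -0.12 and passed (adjusted p = 0.0322), and without TGF-β1 culture 8 it was -0.11 and passed (adjusted p = 0.0415). *Gm45244*, on the opposite strand, overlaps 9.91% of its exon bases.

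**Figure D2:**
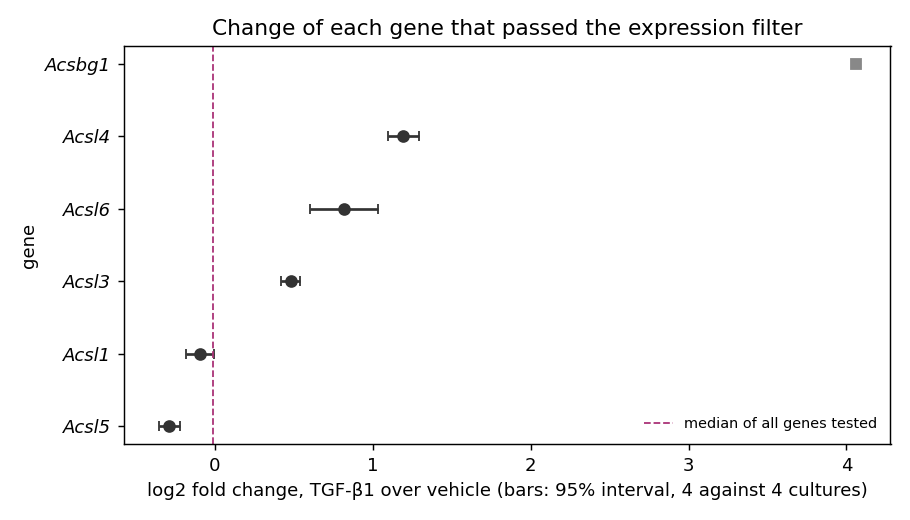
Log2 fold change of TGF-β1 over vehicle for the 6 genes that passed the expression filter, with 95% intervals from the edgeR fit of 4 against 4 cultures (grey square without an interval for *Acsbg1*, which was chosen by this value). The values run from -0.29 for *Acsl5* to 4.06 for *Acsbg1*, and the dashed line is the median of all genes tested, -0.01.

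Among the 5 paralogues tested, *Acsl3*, *Acsl4* and *Acsl6* were thus called higher and *Acsl5* lower, where 20.9% of all genes were higher and 20.3% lower. The groups did not overlap for those 4, as for 37.9% of all genes tested (19.1% with all TGF-β1 cultures above, 18.8% with all below).

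The rise of *Acsbg1* was the largest of the family as a ratio, but in CPM it was below those of *Acsl4* and *Acsl3*. The CPM of the 7 genes summed to 238 ± 8.24 with vehicle and 331 ± 15.2 with TGF-β1 (SD, n = 4 each), a difference of 92.9 CPM. *Acsl4* contributed 50.8 CPM to that difference, *Acsl3* 35.3, *Acsbg1* 19.5 and *Acsl6* 2.38, whereas *Acsl5* contributed -13.0 and *Acsl1* -2.07. Without *Acsbg1*, the sum was still higher, at 310 ± 13.3 against 237 ± 8.26 CPM (SD, n = 4 each), and the groups did not overlap. Most of the added family CPM therefore came from paralogues that were already abundant. CPM favours long genes, and the part of *Acsbg1* was larger per kilobase of merged exons. On that scale the family sum went from 46.4 to 66.6 and *Acsbg1* from 0.345 to 5.77. *Acsl4* went from 7.30 to 16.7, *Acsl3* from 20.3 to 28.4 and *Acsl5* from 14.8 to 12.2.

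Within the summed CPM, *Acsbg1* made up 0.458%, 0.657%, 0.604% and 0.375% in vehicle cultures 1 to 4 and 5.90%, 6.54%, 6.13% and 6.52% in TGF-β1 cultures 5 to 8. The mean share went from 0.524% ± 0.130 to 6.27% ± 0.313 (SD, n = 4 each). With CPM divided by the merged exon length of each gene, it went from 0.746% ± 0.183 to 8.65% ± 0.432 (SD, n = 4 each). With the length of the longest coding transcript, it went from 0.766% ± 0.190 to 9.17% ± 0.467 (SD, n = 4 each). *Acsl4* increased its share of the summed CPM from 16.6% ± 0.351 to 27.2% ± 0.958 (SD, n = 4 each). *Acsl3* kept the largest share in all 8 cultures, at 37.2% ± 0.573 with vehicle and 37.4% ± 0.665 with TGF-β1 (SD, n = 4 each), since it rose about as much as the family sum did. *Acsl5* dropped from 30.3% ± 0.674 to 17.9% ± 0.582 and *Acsl1* from 14.1% ± 0.515 to 9.49% ± 0.364 (SD, n = 4 each), although the level of *Acsl1* itself was not called changed. A share falls when other members rise, and the levels above are the measure of each gene alone.

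**Figure D3:**
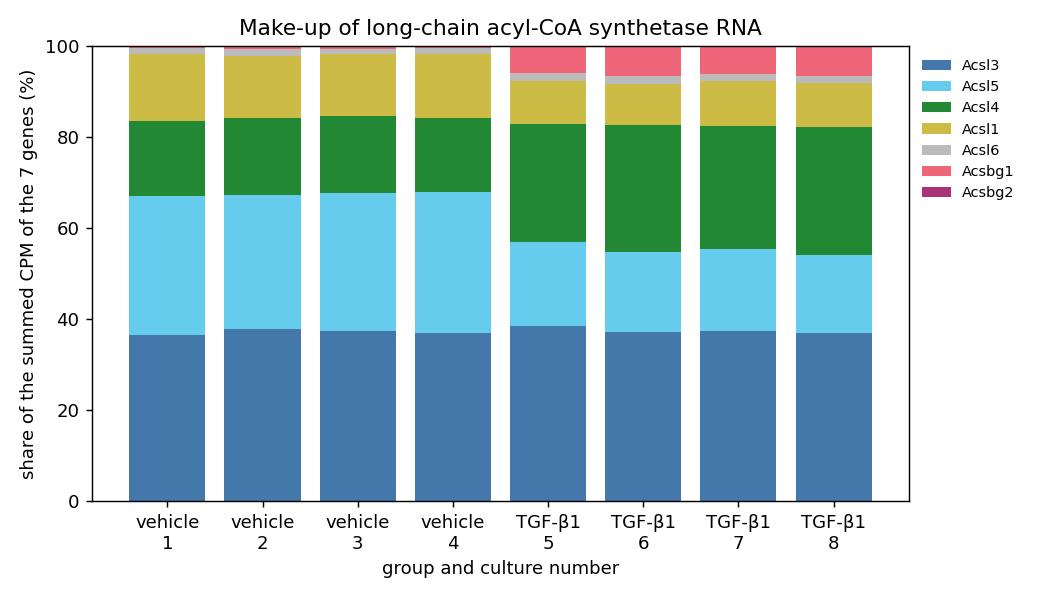
Share (%) of each gene in the summed CPM of the 7 genes, 1 bar per culture. *Acsbg1* (pink, top) takes 0.375% to 0.657% in the vehicle cultures and 5.90% to 6.54% in the TGF-β1 cultures, *Acsl4* (green) widens and *Acsl5* (light blue) narrows.

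Levels of different genes are compared per kilobase, because longer transcripts collect more counts. Per kilobase of merged exons with vehicle, *Acsl3* was highest at 20.3 ± 0.739 CPM per kilobase, followed by *Acsl5* (14.8 ± 0.742), *Acsl4* (7.30 ± 0.311) and *Acsl1* (3.19 ± 0.132; SD, n = 4 each). *Acsbg1* (0.345 ± 0.0847) and *Acsl6* (0.315 ± 0.0314) came next and overlapped between cultures, so their order is not resolved, and *Acsbg2* was last at 0.0353 ± 0.0145 (SD, n = 4 each). With TGF-β1 the order on this scale was *Acsl3* (28.4 ± 1.04), *Acsl4* (16.7 ± 1.30), *Acsl5* (12.2 ± 0.283), *Acsbg1* (5.77 ± 0.541), *Acsl1* (3.00 ± 0.128), *Acsl6* (0.556 ± 0.0423) and *Acsbg2* (0.0124 ± 0.00830; SD, n = 4 each), with no overlap between neighbours. *Acsl4* thus passed *Acsl5* with treatment.

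Where *Acsbg1* stood relative to *Acsl1* depended on the length used. The merged exons of *Acsl1* span 10483 bp but its longest coding transcript has 3897 bp, against 3604 and 2880 bp for *Acsbg1*. On the transcript length, *Acsl1* was at 8.06 ± 0.345 and *Acsbg1* at 7.22 ± 0.677 CPM per kilobase with TGF-β1 (SD, n = 4 each), and their ranges overlapped. On the same scale with vehicle, *Acsl1* (8.59 ± 0.356) stood above *Acsl4* (7.47 ± 0.318), and *Acsl6* (0.539 ± 0.0535) overlapped with *Acsbg1* (0.432 ± 0.106; SD, n = 4 each). On both scales *Acsbg1* left the range of *Acsl6* with treatment.

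**Figure D4:**
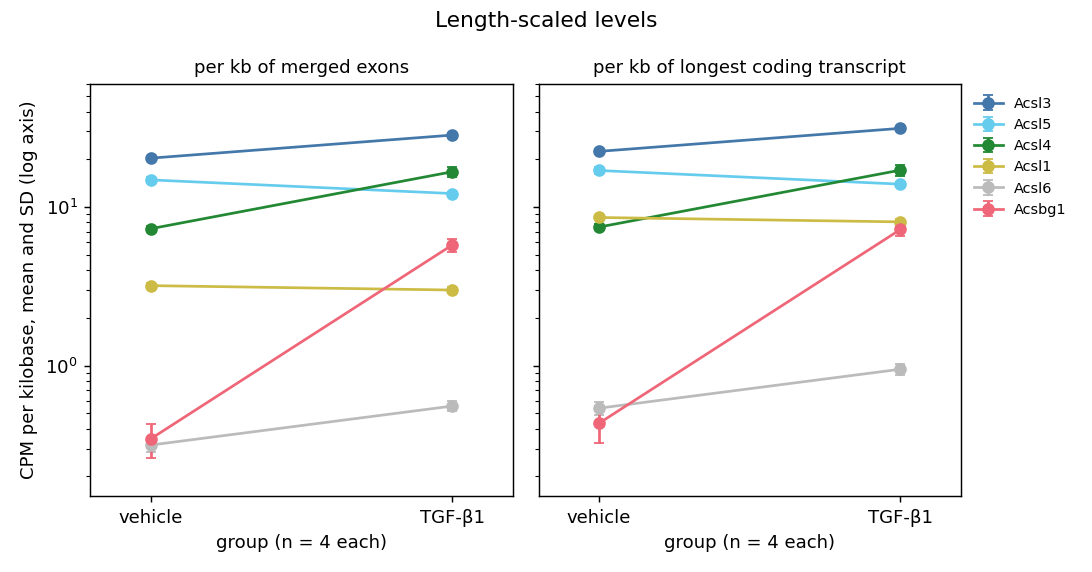
CPM per kilobase (log axis, mean and SD of 4 cultures per group) on merged exon length (left) and on the longest coding transcript (right), without *Acsbg2*. *Acsbg1* rises from the level of *Acsl6* to a mean of 5.77 (left) or 7.22 (right). On the left this is above *Acsl1*. On the right it is below the *Acsl1* mean of 8.06, though the ranges of the cultures overlap.

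Since *Acsbg1* is known from astrocytes, astrocyte markers were examined beside its rise. The summed level of the 12 markers was 257 to 270 CPM with vehicle and 232 to 243 CPM with TGF-β1, and of the 10 that were tested 2 were higher and 5 lower. Over all genes tested, 20.9% were higher and 20.3% lower. *Gfap*, the astrocyte intermediate filament gene, had 31 to 54 counts in each culture, with a log2 fold change of 0.11 (edgeR adjusted p = 0.745). *Aqp4*, the water channel of astrocyte end-feet, was listed at 0 in every vehicle culture and had at most 6 counts elsewhere, and *Gjb6*, an astrocyte connexin gene, was at 0.719 CPM with vehicle and 0.0434 CPM with TGF-β1. *Gja1*, which many cultured cells express, made up most of the summed level at 195 CPM with vehicle. *Aldh1l1* (log2 fold change 0.77) and *Slc1a3* (0.64) were the 2 that rose, and *Slc1a2* (-1.24) and *S100b* (-1.55) were among those that fell.

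Markers of other cell types were summed in the same way, and their counts again stand beside 20.9% higher and 20.3% lower over all genes. Neuron markers summed to 15.6 to 18.0 CPM with vehicle and 16.8 to 20.5 CPM with TGF-β1 (6 of 9 tested, 1 higher, 2 lower). Oligodendrocyte markers summed to 4.43 to 5.91 and 5.64 to 6.33 CPM (5 of 8 tested, 1 higher, 1 lower), with *Mag*, *Olig1* and *Olig2* at 3 counts or fewer in every culture. Endothelial markers summed to 471 to 484 and 472 to 498 CPM (5 of 9 tested, 1 higher, 1 lower), of which *Cdh5* gave 375 CPM with vehicle while *Pecam1* gave 1.11 CPM and *Cldn5* at most 10 counts. Macrophage and microglia markers summed to 109 to 114 and 109 to 111 CPM (8 of 8 tested by edgeR, 1 higher, 0 lower, or 3 and 1 at an unadjusted p under 0.05; DESeq2 also called 0 lower), mostly *Tmem119*. Of 13 pericyte markers, which summed to 1123 to 1186 and 1295 to 1315 CPM, mostly *Acta2*, 10 were tested. The 3 higher were *Cspg4* (log2 fold change 1.03), *Mcam* (0.94) and *Pdgfrb* (0.53). The 3 lower were *Rgs5* (-2.02), *Atp13a5* (-1.27) and *Anpep* (-0.43). Of 6 fibroblast markers 5 were tested, 3 were higher and 1 was lower. The fibroblast sum was mostly *Col1a1* and *Col1a2*, which rose (log2 fold change 0.67 and 0.43), as did *Dpp4* at under 1 CPM. *Dcn* fell (-0.16), *Pdgfra* was not called (0.01) and *Lum* did not pass the filter. The summed fibroblast level thus rose along with *Acsbg1* through its collagen genes, and its part in the changes of the synthetase genes was not tested.

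The tested genes on either side of *Acsbg1* were called higher, as were 20.9% of all genes tested, and their changes were far smaller than that of *Acsbg1*. *Idh3a*, a subunit gene of mitochondrial isocitrate dehydrogenase, ends 216 bp from *Acsbg1* on the opposite strand and went from 59.3 ± 2.09 to 73.6 ± 3.44 CPM (SD, n = 4 each), a log2 fold change of 0.31 (SE 0.03, edgeR adjusted p = 1.94e-10). *Dnaja4*, a co-chaperone gene 37003 bp away on the other side, went from 12.9 ± 0.502 to 15.4 ± 0.672 CPM (SD, n = 4 each), a log2 fold change of 0.26 (SE 0.06, edgeR adjusted p = 3.13e-04). Both neighbours were higher in all 4 treated cultures than in any vehicle culture, as were 19.1% of all genes tested.

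The 250 bases before the RefSeq start of *Acsbg1* (chr9:54661886-54662135, minus strand, GRCm38.p6) are shown because the gene responds to a ligand of SMAD signalling, with the bases that match the SMAD core motif CAGAC, here on the opposite strand as GTCTG, in capitals.
Acsbg1 promoter: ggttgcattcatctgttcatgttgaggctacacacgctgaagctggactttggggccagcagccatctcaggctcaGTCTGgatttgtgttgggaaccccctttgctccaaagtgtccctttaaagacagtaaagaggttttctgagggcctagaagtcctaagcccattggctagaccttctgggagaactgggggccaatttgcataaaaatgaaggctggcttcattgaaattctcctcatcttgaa

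The window holds 1 CAGAC on either strand, as do 42.2% of 32851 promoter windows of the same length with at least 1. It holds no GGCGC (32.0% of windows) or GGCCG (30.4%), GC-rich letters that SMADs can also bind, no TGANTCA of AP-1 (6.75%) and no TATAAA (12.4%). All were searched on both strands. The window was 48.4% G or C, against a median of 52.4% over all windows. Among the paralogues that rose, the windows of *Acsl3* and *Acsl4* hold no CAGAC, and those of *Acsl6* hold it at 2 of 3 starts. CAGAC is also in both windows of *Acsl1*, which was not called. Of the GC-rich letters, the window of *Acsl3* holds 2 GGCGC and 2 GGCCG, and that of *Acsl4* holds 2 GGCCG. *Acsl6* has 3 GGCGC and 1 GGCCG at start 2, and 1 TGANTCA at start 1. Such letters also occur at start 1 of *Acsl1* (4 GGCGC, 2 GGCCG) and in the window of *Acsl5* (1 GGCCG), which was lower. These matches describe letters in the window and were not related to binding.

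The genes whose pattern over the 8 cultures was most like that of *Acsbg1* were taken from 16493 other genes of at least 1 CPM, by the root mean square difference of log2 CPM after centring each gene on its own mean. Because *Acsbg1* was chosen by its rise in these same cultures, such a ranking returns other strong risers, and the likeness is only a description. The closest was *Has2*, a hyaluronan synthase gene, with a difference of 0.336 and a level of 2.00 ± 0.390 CPM with vehicle and 22.0 ± 4.06 CPM with TGF-β1 (SD, n = 4 each). Also among the 5 closest were the serine protease genes *Prss46* (difference 0.446), *Mcpt8* (0.483) and *Cma2* (0.498). These 3 are low, at 0.307, 0.356 and 0.172 CPM with vehicle and 3.21, 3.30 and 1.95 CPM with TGF-β1. They reached a mean of 1 CPM only through the TGF-β1 cultures. Of the 50-base stretches of *Cma2*, 39.8% occur in other genes, so its counts are uncertain.

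The wider pathway was followed in 12 lists of genes that make, bind or use acyl-CoAs, 181 genes in all. Of the 154 that were tested, 47 were higher, 40 were lower and 67 did not pass, so that 56.5% were called against 41.3% of all genes. Their median log2 fold change was 0.02, and the changes thus went both ways. Over all genes tested 20.9% were higher and 20.3% lower, and the counts of each list below stand beside these shares. Of the 22544 genes tested, 16494 had a mean of at least 1 CPM, and the rest were lower. The list genes were not matched to all genes by level, here or in the single lists below. Whether a share called differs from that of genes of like level was not tested.

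Of the other acyl-CoA synthetases tested, 33.3% of very long-chain and 20% of short- and medium-chain genes were called, against 41.3% of all genes. Both lists are small. In the SLC27 family of very long-chain synthetases and fatty acid transport proteins, 1 of 6 genes was higher, *Slc27a1* (28.7 ± 1.32 to 35.3 ± 1.18 CPM, log2 fold change 0.30), and 1 lower, *Slc27a6* (1.84 ± 0.222 to 1.18 ± 0.234 CPM, -0.64). *Slc27a2*, at 0.199 and 0.379 CPM, did not pass but did so when vehicle culture 1 or TGF-β1 culture 7 was left out, which makes 2 higher. Among 11 short- and medium-chain synthetases 5 were tested and 1 was called, *Acss2*, which makes acetyl-CoA from acetate (20.9 ± 0.495 to 15.0 ± 0.788 CPM, -0.47). None was higher by edgeR (0 also at an unadjusted p under 0.05) or by DESeq2, but *Acsf2*, at 25.1 and 26.7 CPM, was called higher when vehicle culture 1 was left out. None of these relatives passed with a rise as large as that of *Acsl4*.

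Genes that bind fatty acids or acyl-CoAs rose more often than they fell. Of 10 tested, 6 were higher and 1 lower, or 70% called against 41.3% of all genes. The number higher ranged from 4 to 7 with each culture left out and from 5 to 6 under the other alternatives, with 1 lower in each. *Fabp4*, a fatty acid binding protein gene of fat and endothelium, went from 1.89 ± 0.360 to 4.78 ± 0.426 CPM (SD, n = 4 each), a log2 fold change of 1.34 (edgeR adjusted p = 6.44e-12). *Fabp5* changed by 0.42, and *Acbd4*, an acyl-CoA binding gene of peroxisomes, was lower (19.2 ± 0.542 to 15.9 ± 0.736 CPM, -0.28).

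Acyl-CoA thioesterases, which undo the step that the synthetases catalyse, were higher in 5 of 11 tested genes and lower in 0 by edgeR, with a median of 0.24. That is 45.5% called, near the 41.3% of all genes. At an unadjusted p under 0.05, 7 were higher and 0 lower, and no thioesterase was called lower under any alternative run, DESeq2 included. *Acot4* of peroxisomes changed most, from 0.687 ± 0.225 to 2.64 ± 0.257 CPM (SD, n = 4 each), a log2 fold change of 1.94 (edgeR adjusted p = 6.65e-12). It was low with vehicle, at 0.456 to 0.943 CPM, and reached a mean of 1 CPM only through the TGF-β1 cultures. *Acot7*, the main thioesterase of brain, changed by 0.34 and *Acot1* of the cytosol by 0.39. Of the 50-base stretches of *Acot1*, 19.2% occur in other genes, so its counts are uncertain.

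Mitochondrial oxidation genes mostly fell or did not pass, with 1 of 17 higher and 8 lower. The share called was 52.9%, against 41.3% of all genes. *Acadm*, the medium-chain acyl-CoA dehydrogenase gene, had the largest change, from 72.0 ± 1.54 to 45.0 ± 0.988 CPM (SD, n = 4 each), a log2 fold change of -0.68 (edgeR adjusted p = 8.67e-22). *Cpt2*, which releases acyl-CoA inside the mitochondrion, changed by -0.27, and the enoyl-CoA hydratase gene *Echs1* was the 1 that rose (0.34). The median of the list was -0.06.

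Of 12 peroxisomal genes 1 was higher and 4 were lower, and the 41.7% called was near the 41.3% of all genes. The carnitine octanoyltransferase gene *Crot* went from 75.4 ± 2.20 to 63.9 ± 2.78 CPM (SD, n = 4 each), a log2 fold change of -0.24, and the thiolase gene *Acaa1a* changed by -0.21. The 1 higher gene, *Acaa1b*, lost its call with DESeq2, with other filters, with halved counts and without vehicle culture 1 or 3 or TGF-β1 culture 5 or 7, which leaves 0. *Acaa1a* shares 12.9% of its 50-base stretches with other genes.

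Genes that elongate and desaturate fatty acids were split, with 7 of 19 higher and 5 lower. *Hacd4*, an elongation dehydratase gene, fell from 91.9 ± 2.14 to 62.6 ± 1.30 CPM (SD, n = 4 each; log2 fold change -0.55), and *Elovl4*, an elongase gene for very long chains, rose from 10.9 ± 0.518 to 15.6 ± 0.865 CPM (SD, n = 4 each; 0.52). *Fads6* (2.72 ± 0.302 and 2.12 ± 0.175 CPM, -0.36) was called lower with an edgeR adjusted p of 0.0322, but its groups overlapped and the call was lost with DESeq2 (0.0576), with every gene that had a count tested (0.0627) and without vehicle culture 3 or 4 or TGF-β1 culture 5, 6 or 7 (up to 0.106). Without TGF-β1 culture 6, 3 genes of the list were lower.

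Acyltransferases that place acyl-CoAs into glycerolipids were higher in 9 of 23 tested genes and lower in 5. *Lpgat1* rose from 161 ± 2.05 to 229 ± 3.80 CPM and *Mboat2* from 7.03 ± 0.564 to 12.1 ± 0.861 CPM (SD, n = 4 each), by 0.51 and 0.79 on the log2 scale, whereas *Mboat1* changed by -0.49. All 3 encode lysophospholipid acyltransferases.

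In the lipid droplet and lipolysis list 5 of 13 genes were higher and 3 lower. *Mgll*, the monoacylglycerol lipase gene, had the largest log2 fold change of all 12 lists, 2.01 (SE 0.11, edgeR adjusted p = 5.78e-13), from 3.65 ± 0.637 to 14.7 ± 1.99 CPM (SD, n = 4 each). *Hilpda*, an inhibitor gene of triglyceride lipolysis, changed by 0.51 and *Lipe*, the hormone-sensitive lipase gene, by -0.43.

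Sphingolipid synthesis starts from palmitoyl-CoA, and 3 of its 12 tested genes were higher and 3 lower. *Cers6*, a ceramide synthase gene, rose from 98.9 ± 3.89 to 152 ± 4.33 CPM (SD, n = 4 each; 0.62 on the log2 scale) and *Kdsr*, the ketosphinganine reductase gene, by 0.45, whereas *Cers4* changed by -0.26. With DESeq2, or without vehicle culture 3, 1 gene was lower.

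The transcription factors of lipid genes were mostly lower, in 7 of 12 tested genes against 1 higher, with a median of -0.27. Together 66.7% were called, against 41.3% of all genes. *Ppara*, the nuclear receptor gene of fatty acid oxidation, fell from 3.80 ± 0.510 to 1.89 ± 0.257 CPM (SD, n = 4 each), by 1.01 on the log2 scale (edgeR adjusted p = 3.79e-08). *Nr1h3*, the gene of the sterol receptor LXRα, changed by -0.77. *Mlxipl*, the gene of the carbohydrate-responsive factor ChREBP, was the 1 that rose (0.75).

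Among lipid peroxidation and ferroptosis genes, to which *Acsl4* is linked, 8 of 14 tested were higher and 2 lower, with a median of 0.23. In this list 71.4% were called, against 41.3% of all genes. *Aifm2*, also called FSP1, which protects membranes from peroxidation, rose from 19.6 ± 0.318 to 34.3 ± 1.62 CPM (SD, n = 4 each; log2 fold change 0.80, edgeR adjusted p = 2.86e-19). *Gch1*, a tetrahydrobiopterin synthesis gene that protects too, rose by 0.70, and *Tfrc*, the transferrin receptor gene for iron uptake, by 0.62. The 2 lower genes were *Slc7a11*, from 270 ± 6.56 to 187 ± 12.1 CPM (SD, n = 4 each; log2 fold change -0.53), and *Fth1* (-0.11). The list thus holds genes on both sides of the process.

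**Figure D5:**
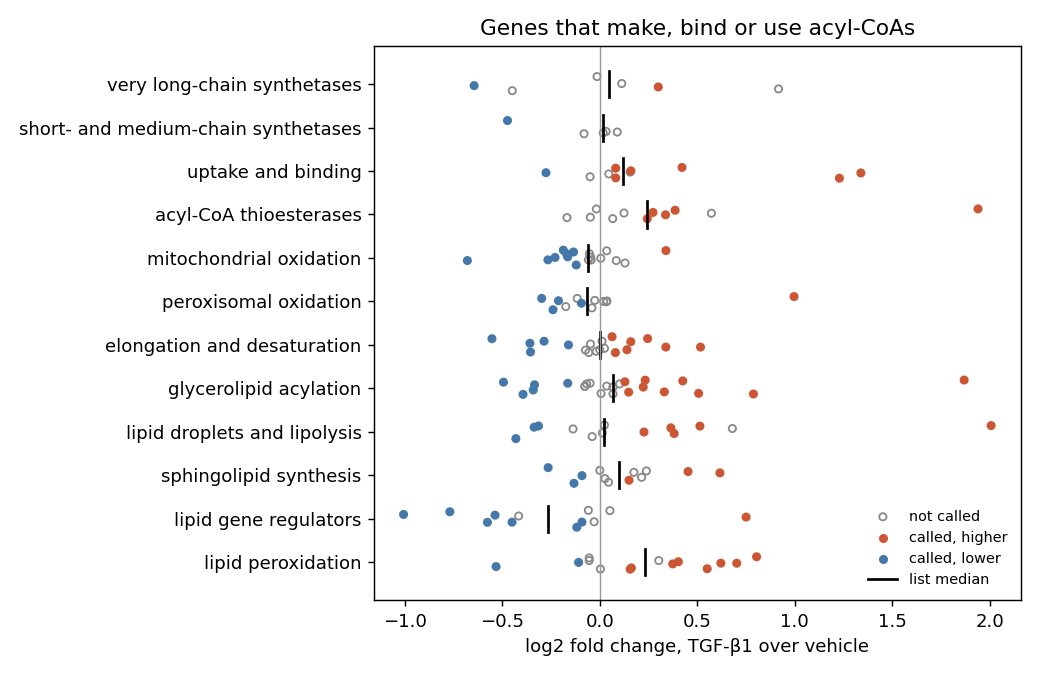
Log2 fold change (TGF-β1 over vehicle) of each tested gene in the 12 lists, filled orange where called higher, filled blue where called lower and open where not called (edgeR adjusted p under 0.05), with a black line at each list's median. The medians lie between -0.27 for the regulators and 0.24 for the thioesterases.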

How the data were processed

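RNA of 8 cultures was sequenced from a stranded total RNA preparation. The authors aligned reads to mm10 with STAR 2.7.5c, removed duplicates with SAMtools 1.15 and deposited raw counts per Ensembl gene from featureCounts 2.0.3, without normalization. The annotation release, the strand setting and the treatment of reads shared between genes are not given in the sources used here. Low counts were mostly even (68.5% to 70.2% of counts from 1 to 20), so counts may exceed independent fragments.

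Of 54532 identifiers, 54495 were paired with GENCODE M21 on GRCm38, the assembly of mm10. Counts were tested with edgeR 4.0.16 (filterByExpr, TMM, robust quasi-likelihood fit) in R 4.3.3, with Benjamini-Hochberg adjustment over 22544 genes and a threshold of 0.05. Log2 CPM used a prior count of 2. The code was tested on simulated data. Alternatives were DESeq2 1.42.0, other size factors, filters of at least 1 count in any or 10 counts in every culture, halved counts and each culture left out. The share per longest coding transcript was added after seeing the data.

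The members and lists were chosen with earlier results of these data known. Genes named were the 7 synthetases, the 3 largest called changes of at least 1 CPM per list, the nearest tested gene on each side of *Acsbg1*, the 5 genes most like it, and markers. *Slc27a2*, *Acsf2*, *Acaa1b*, *Slc7a11* and *Fth1* were chosen after their values were seen. Some genes under this rule are not reported here. The labels do not tie cultures to isolates, and p-values judge each group difference against the estimated spread between these cultures.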

Additional observations from a re-analysis of the deposited data

Results flagged for a closer look

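In 5 of 126 groups of 4 cultures examined, 1 culture stood apart from the other 3 by Dixon's criterion, where chance alone gives about 6.3 (1 in 20). *Acsbg2* was at 0 CPM in TGF-β1 culture 6, against 0.0426 in the nearest culture, a difference of 2 counts. *Acsl1* was at 31.4 CPM in vehicle culture 2, against 33.9 in the nearest. *Acbd4* was at 17.0 CPM in TGF-β1 culture 5, against 15.5 in the nearest. *Gch1* was at 3.84 CPM in vehicle culture 2, against 4.61 in the nearest. The neuron marker *Map2* was at 9.46 CPM in vehicle culture 1, against 11.2 in the nearest.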

How the results depend on the processing

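*Acsl3*, *Acsl4*, *Acsl5* and *Acsl6* kept their direction and their call under all 15 alternatives. *Acsl1* was lower in each of them but passed the threshold only with library totals as the scaling (-0.10, adjusted p = 0.0489) and without vehicle culture 2 or TGF-β1 culture 8. With each culture left out, its log2 fold change ranged from -0.12 to -0.076 and its adjusted p from 0.0322 to 0.216. That of *Acsbg1* ranged from 3.93 to 4.17 with each culture left out and from 4.04 to 4.07 otherwise. The share of *Acsbg1* in the summed CPM ranged from 0.479% to 0.573% with vehicle and from 6.18% to 6.40% with TGF-β1 with each culture left out, and division by gene length moved it to 0.746% or 0.766% and to 8.65% or 9.17%. The number of genes called ranged from 8559 to 9311, and of pathway genes from 43 to 47 higher and 32 to 43 lower. The endothelial marker *Tek* lost its call without vehicle culture 1 (-0.31, adjusted p = 0.115). No direction reversed among the genes recomputed, which were the synthetases, the pathway genes named by the rule above, the neighbours and likest genes of *Acsbg1* and part of the called markers. No paired analysis was possible because the labels number the vehicle cultures 1 to 4 and the TGF-β1 cultures 5 to 8, so no number is shared. If cultures of both groups came from the same isolates, the unpaired test leaves that out. Depth limits what can be said of *Acsbg2*, with at most 6 counts.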
